A study of Mus musculus with 2 samples.

Results

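Protein-coding genes that lay clear of every H3K4me3 peak were examined in mouse prospermatogonia, the male germ cells that rest in the fetal testis before they become spermatogonia. A gene was taken where no peak overlapped its body or the 5 kb on each side, and its chromosome was an autosome of the mm10 build. Gene symbols beginning Olfr, Vmn1r, Vmn2r, Krt or Cyp (odorant and vomeronasal receptors, keratins with their associated proteins, and cytochromes P450) were set aside. Of 18887 genes assessed, 1513 had no peak, or 8.01% (95% Wilson interval 7.63 to 8.41). The peaks came from 1 CUT&RUN library of 130000 cells, sorted on an Oct-GFP reporter at E17.5 of embryonic life and treated with an antibody to H3K4me3. A library made with rabbit IgG from 130000 of the same sorted cells was also described. Its values were not used here, beyond any part they had in the authors' peak calling. The strain of the embryos, and whether animals were pooled, were not stated in the sources used here. The peak list held 135064 peaks, 122479 of them on autosomes. Over the whole list the median fold enrichment was 6.0 and the lowest −log10 q was 2.07. The number of fragments behind them was not stated in the sources used here, so a gene with no peak is one at which the authors' caller listed none at this depth.

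H3K4me3 is laid down at the start sites of genes that are active or held ready for activity. The complexes that write it carry subunits that bind unmethylated CpG, so promoters rich in CpG dinucleotides often carry the mark even where the gene is silent. Promoters poor in CpG, typical of genes used in a single differentiated tissue, as a rule gain it only in that tissue. Genes with no peak were chosen by these peaks, so their lack of a peak is the definition of the set and is not itself a result. With 1 library there was no test between conditions, and the shares below are descriptions of this library.

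The promoters show what most of the set shared. The 150 bases before the 5′-most start site are given for 6 genes with no peak, chosen as products of different tissues, and for 2 germline genes with peaks as a contrast. All are in mm10 coordinates and are written along the sense strand of the gene. Alb (serum albumin, made by the liver) lies on the plus strand at chr5:90460720-90460869. Serpina1a (a liver inhibitor of elastase) lies on the minus strand at chr12:103863620-103863769. Mup4 (a major urinary protein, a pheromone carrier) lies on the minus strand at chr4:59960668-59960817. Il2 (a growth factor of T cells) lies on the minus strand at chr3:37125955-37126104. Psg21 (a placental pregnancy-specific glycoprotein) lies on the minus strand at chr7:18656726-18656875. Prm1 (the protamine that packs sperm DNA) lies on the minus strand at chr16:10796824-10796973. Of the germline genes, Dazl (an RNA-binding protein required for germ cells) lies on the minus strand at chr17:50293621-50293770, and Sycp3 (a protein of the meiotic chromosome axis) on the plus strand at chr10:88459437-88459586. Capitals mark each CG dinucleotide and, where present 21 to 40 bases before the start, the letters TATAAA.
Alb: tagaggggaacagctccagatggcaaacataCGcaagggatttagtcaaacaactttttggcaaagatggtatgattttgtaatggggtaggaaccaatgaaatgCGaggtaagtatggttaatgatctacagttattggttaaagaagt
Serpina1a: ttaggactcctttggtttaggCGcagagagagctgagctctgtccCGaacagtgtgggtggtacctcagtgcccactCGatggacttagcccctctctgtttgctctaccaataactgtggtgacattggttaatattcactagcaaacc
Mup4: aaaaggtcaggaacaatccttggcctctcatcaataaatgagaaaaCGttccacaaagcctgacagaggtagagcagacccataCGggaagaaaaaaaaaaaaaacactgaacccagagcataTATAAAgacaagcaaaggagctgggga
Il2: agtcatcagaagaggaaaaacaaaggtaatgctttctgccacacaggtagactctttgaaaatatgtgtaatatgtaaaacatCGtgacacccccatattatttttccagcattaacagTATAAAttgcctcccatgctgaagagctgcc
Psg21: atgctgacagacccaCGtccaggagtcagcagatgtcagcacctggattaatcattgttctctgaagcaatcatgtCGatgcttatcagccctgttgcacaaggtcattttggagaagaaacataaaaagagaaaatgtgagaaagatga
Prm1: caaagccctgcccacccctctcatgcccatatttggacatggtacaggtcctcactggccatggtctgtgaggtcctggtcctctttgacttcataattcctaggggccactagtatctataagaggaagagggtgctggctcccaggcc
Dazl: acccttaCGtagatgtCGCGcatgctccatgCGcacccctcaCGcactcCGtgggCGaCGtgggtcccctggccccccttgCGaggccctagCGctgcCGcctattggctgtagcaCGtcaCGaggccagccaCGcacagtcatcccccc
Sycp3: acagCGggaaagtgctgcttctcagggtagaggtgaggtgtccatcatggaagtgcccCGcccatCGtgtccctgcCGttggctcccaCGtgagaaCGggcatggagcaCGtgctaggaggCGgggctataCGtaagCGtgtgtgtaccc
The stretch before Alb held 2 CG dinucleotides, that before Il2 held 1 and that before Prm1 held 0. The stretches before Dazl and Sycp3 held 14 and 10. TATAAA began 27 bases before the start of Mup4 and 31 bases before that of Il2.

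Promoter sequences of 300 bases, from 250 before to 50 after the start, were found for 1223 of the 1513 genes and for 13804 of the 17374 genes with a peak. The rule did not use them. The CpG ratio is the number of CG dinucleotides over that expected from the C and G content, so 1 stands for no depletion. Its median was 0.131 in genes with no peak and 0.691 in genes with a peak. The median count of CG dinucleotides was 2 against 17, and the median GC content was 47.3% against 59.0%. A ratio under 0.4 was found in 96.7% of the genes with no peak and in 26.6% of those with one. No CG at all was present in 14.5% of the promoters without a peak and in 1.68% of the others.

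The share of genes without a peak fell from class to class of rising CpG ratio. It was 32.6% (845 of 2596 genes) at a ratio under 0.2, 14.9% between 0.2 and 0.4, and 1.81% between 0.4 and 0.6. At a ratio of 0.6 or more it was 0.0489%, or 4 of 8180 genes. These 4 were the predicted genes Gm40814 (ratio 0.918), Gm37116 (0.673) and Gm40453 (0.647), and Ctla4 (0.609), an inhibitory receptor of T cells. The nearest peak to Ctla4 was 5490 bp away. Serpina3a, a serpin, followed with a ratio of 0.589.

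**Figure D1:**
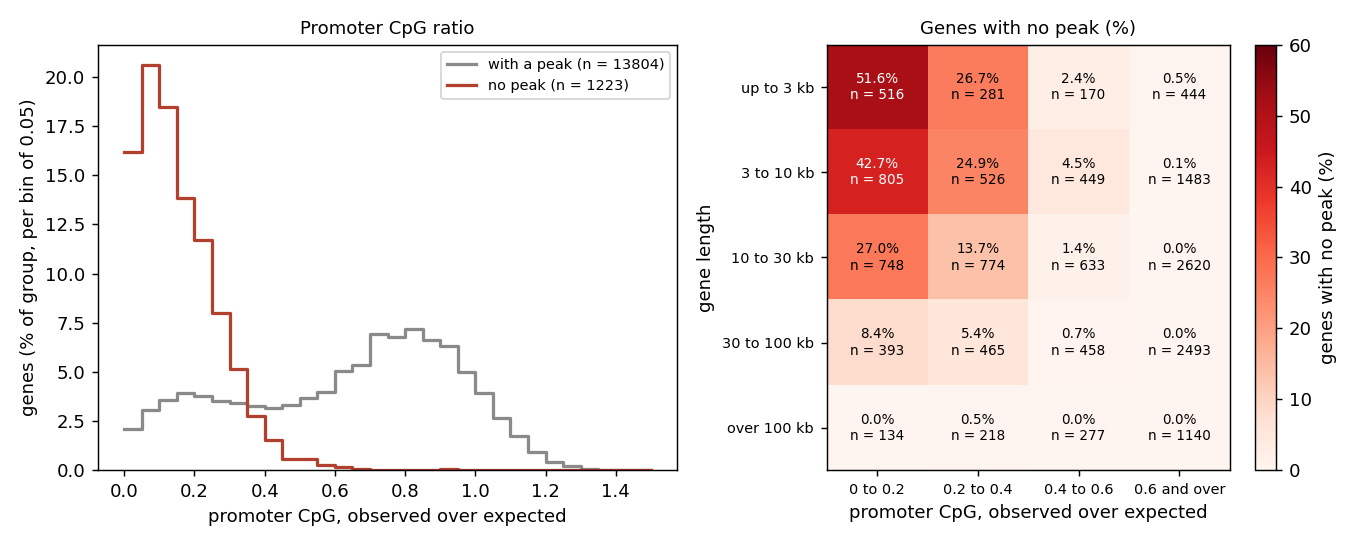
Left: distribution of the promoter CpG ratio (x axis) as a percentage of each group per bin of 0.05 (y axis), for 1223 genes with no H3K4me3 peak and 13804 with one. Right: percentage of genes with no peak by gene length and CpG ratio, with the number of genes in each cell; the highest share, 51.6%, is at genes up to 3 kb long with a ratio under 0.2, and at a ratio of 0.6 and over no length class has more than 2 such genes.

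Genes with no peak were also short. Their median length was 5822 bp, from 144 to 179968 bp, against 22066.5 bp in genes with a peak. A longer gene gives a wider window, in which a peak is more easily met, so length entered the rule. No peak was found at 24.1% of genes up to 3 kb long, at 15.0% between 3 and 10 kb, at 1.77% between 30 and 100 kb, and at 2 of 2307 genes over 100 kb. Those 2 were Tg (179968 bp), which encodes the thyroid hormone precursor thyroglobulin, and Fam160a1 (125240 bp). Dmbt1, a secreted mucosal glycoprotein, Gucy1b2, a guanylate cyclase subunit, and the predicted gene Gm51415 were the next longest, from 89572 to 81177 bp. The CpG classes kept this order within each length class up to 100 kb, while over 100 kb only 1 gene with a promoter sequence, at a ratio between 0.2 and 0.4, had no peak. Among genes up to 3 kb long, 51.6% of those with a ratio under 0.2 had no peak (266 of 516), against 2 of 444 with a ratio of 0.6 or more.

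A TATA box fixes the start of transcription at many tissue-restricted genes. TATAAA on the sense strand, 21 to 40 bases before the start, was present in 127 of 1223 promoters with no peak (10.4%). It was present in 1.91% of promoters with a peak and in 2.60% of all 15027. Searched on both strands over the 300 bases, TATAAA was in 27.9%, 9.37% and 10.9% of the same groups. GGGCGG, the letters bound by Sp1 and its relatives, was on either strand in 6.54% of promoters with no peak, in 55.6% with a peak and in 51.6% of all. The pentamer CCAAT was at nearly equal shares, 39.1%, 38.7% and 38.7%. GGGCGG itself contains CG, and a match is a description of the letters only.

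Some of the genes belong to families of near-identical copies, at which short reads cannot always be placed. A promoter was scored by the share of its 36-base stretches found at another position among the promoters, on either strand. This share had a median of 0 both in genes with no peak and in genes with one. It was 50% or more in 215 of 1223 promoters without a peak (17.6%) and in 2.25% of those with one. No peak was found at 41.0% of the genes with so many copied stretches, and at 5.54% (766 of 13821) of genes with none. Within the genes with none, the CpG classes were still ordered, with 25.1% under a ratio of 0.2, 13.0% between 0.2 and 0.4, 1.49% between 0.4 and 0.6, and 1 of 8029 genes above. How reads with several matches were handled was not stated in the sources used here, and its part in the lack of peaks was not tested.

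The distance from a gene with no peak to the nearest peak had a median of 13822 bp, with quartiles of 8528 and 24252 bp. It was over 10 kb in 1013 genes, over 50 kb in 100 and over 100 kb in 4. The most remote were Speer4b, a member of a testis-expressed family, at 198903 bp, the predicted genes Gm4565 at 131578 bp and Gm30733 at 121876 bp, the epithelial transcription factor gene Ehf at 108097 bp, and BC061237 at 96213 bp. Just past the threshold lay Prl3d1 at 5013 bp, 1700020A23Rik at 5016, Ubqlnl at 5032, Gm32886 at 5052 and Asb17 at 5053 bp. Just short of it, and so counted as having a peak, were Taar8c at 4979 bp, Dcpp3 at 4977, Scrg1 at 4974, Odf3 at 4963 and Gstp3 at 4959 bp. Between 5 and 6 kb there were 115 genes, and between 4 and 5 kb there were 122. The peaks nearest to the set had a median fold of 6.75, beside 6.0 over all peaks of the list, those off the autosomes included.

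The same windows moved by 100 kb missed every peak in 25.4% of genes in one direction and 26.1% in the other. Over the genes in place the share was 8.01%. For the 1513 genes with no peak, moved windows were empty in 46.9% and 48.2%. For genes with a peak these shares were 23.6% and 24.2%. Moved windows keep the length of the gene, which was shorter in the set.

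Of the 1513 genes, 435 (28.8%) fell in family lists that held 6.04% of all genes assessed. Both figures left out the lists of solute carriers, zinc finger Zfp genes and cytosolic ribosomal proteins. Those lists had no peak at 16 of 362, 1 of 388 and 1 of 76 genes. Another 392 of the 1513 had predicted symbols (Gm, LOC or Rik names) and no list. Named genes outside the counted family lists and all tissue lists numbered 608, among them genes of the lists left out, such as Zfp750 and Rpl32l. Predicted genes had no peak in 27.98% of cases (392 of 1401) and named genes in 6.41% (1121 of 17486). With every family list included, the share was above 8.01% in 46 of 54. The lists were chosen with earlier results of these data known, so these figures may partly reflect that choice. Members of a family often sit side by side, so they are not independent and the Wilson intervals cover counting only.

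Families of secreted defence and carrier proteins ranged from 13.3% to 90.9%. Major urinary proteins had no peak at 20 of 22 genes (90.9%, 72.2 to 97.5), among them Mup1, Mup10, Mup11 and Mup12, while Mup20 and Mup5 had one. The alpha-defensins, antimicrobial peptides of intestinal Paneth cells, had none at 24 of 28 genes, including Defa17, Defa2, Defa20 and Defa21. The beta-defensins of epithelia had none at 26 of 42, including Defb1, whose nearest peak was 11153 bp away. The Reg lectins of gut and pancreas had none at 6 of 7 genes, with Reg4 the exception. Lipocalins and odorant-binding proteins had none at 9 of 13, secretoglobins at 27 of 40, ribonucleases at 10 of 20, and seminal vesicle and Pate proteins at 14 of 25. Exocrine gland-secreted peptides, which also include pheromones, had none at 2 of 15 genes, Esp1 and Esp16.

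Protease inhibitors and proteases covered a wide range. Serpina inhibitors, mostly liver products such as Serpina1a, Serpina1b and Serpina1c, had no peak at 18 of 23 genes (78.3%, 58.1 to 90.3). The related Serpinb inhibitors, which act inside cells, had none at 4 of 28: Serpinb3a, Serpinb3c, Serpinb3d and Serpinb6e. The list of cystatins and stefins, inhibitors of cathepsins, had none at 14 of 28 and Kazal-type inhibitors at 6 of 12. The cystatin list was drawn by symbol and also took in Cstad, Cstf1, Cstf2t and Cstf3. These are not cystatins and had peaks, so the share in true cystatins and stefins is higher. Kallikreins, many of them salivary, had none at 11 of 27, among them Klk1b1, Klk1b11, Klk1b22 and Klk1b26. Adam proteases had none at 11 of 34, matrix metalloproteinases at 7 of 23, and trypsins with other Prss proteases at 9 of 42. Carboxylesterases, liver and gut enzymes that cleave esters, had none at 11 of 19. Among other enzymes of drug metabolism, UDP glucuronosyltransferases had none at 3 of 19, sulfotransferases at 3 of 21 and glutathione transferases at 2 of 21.

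Signals and receptors of the immune system were well represented. The type I interferon list had no peak at 12 of 20 genes, including Ifna1, Ifna11, Ifna14 and Ifna15. The gene for interferon beta, Ifnb1, had its nearest peak at 6655 bp. The list was drawn by symbol and also took in the receptor subunits Ifnar1 and Ifnar2. These are not interferons and had peaks, so the share in true interferons is higher. Interleukins had none at 13 of 33 genes, among them Il10, Il17c, Il19 and Il1b, and chemokines at 10 of 36, among them Ccl1, Ccl11, Ccl12 and Ccl17. The Cd300 and paired immunoglobulin-like receptors of myeloid cells had none at 13 of 19 genes, and Ms4a membrane proteins at 9 of 21. Killer lectin-like receptors had none at 6 of 27, whereas C-type lectins had none at 1 of 33, Clec3a. All 11 Skint genes had a peak, which allows a share without one of up to 27.3%. The median Skint gene was 64032 bp long, and the moved windows of that list were never empty.

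Chemosensory receptors outside the excluded families had intermediate shares. Bitter taste receptors, genes with a median length of 936 bp, had no peak at 19 of 35, trace amine receptors at 6 of 15, formyl peptide receptors at 4 of 7, and Mas-related receptors of sensory neurons at 4 of 20. Placental and early-embryonic families were also present. Ceacam and Psg glycoproteins had none at 15 of 28, prolactin-family hormones at 9 of 25, and Pramel and Oog genes, known from oocytes and early embryos, at 30 of 49. Speer genes had none at 7 of 10. Nlrp genes, several of them maternal-effect genes, had none at 1 of 18, Nlrp4g. With the gene body alone as the window, C-type lectins and Nlrp genes passed to the other side of the share over all genes, with 21.2% and 22.2% against 12.4%.

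Large families of broad use were at the other end. Zinc finger genes of the Zfp series had no peak at 1 of 388, Zfp750, an epidermal differentiation factor. Cytosolic ribosomal protein genes had none at 1 of 76, the copy-like gene Rpl32l, although 52.6% and 55.3% of their moved windows were empty. Solute carriers had none at 16 of 362. With peaks of fold 5 or more only, 23.7% of ribosomal protein genes had none, above the 19.1% of all genes.

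Families differed in how empty their windows were when moved by 100 kb. Some form clusters longer than that: a run of Serpina genes spanned 294.9 kb and a run of Mup genes 1483 kb. Moved windows can thus fall inside the same cluster, so their shares need not describe separate surroundings. Serpina windows were empty in 69.6% and 73.9% when moved, against 78.3% in place. For alpha-defensins the moved shares were 85.7% and 78.6%, against 85.7% in place, and for secretoglobins 60% and 65.0%, against 67.5%. Major urinary proteins were at 77.3% and 40.9% when moved, against 90.9% in place, and Ceacam and Psg genes at 25% and 32.1%, against 53.6%. In the first 3 families both moved shares lay inside the Wilson interval of the genes in place (58.1 to 90.3, 68.5 to 94.3 and 52.0 to 79.9). In Ceacam and Psg genes both lay below that interval (35.8 to 70.5), and in major urinary proteins 1 of the 2 did. Other families were fuller in place than 100 kb away. Mas-related receptors were empty in 45% both ways when moved, against 20% in place (8.07 to 41.6). Prss proteases were at 45.2% and 47.6% when moved, against 21.4% (11.7 to 35.9), and solute carriers at 20.7% and 19.3%, against 4.42% (2.74 to 7.06). Over the 54 families, the share in place was above both moved shares in 15 and below both in 15.

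**Figure D2:**
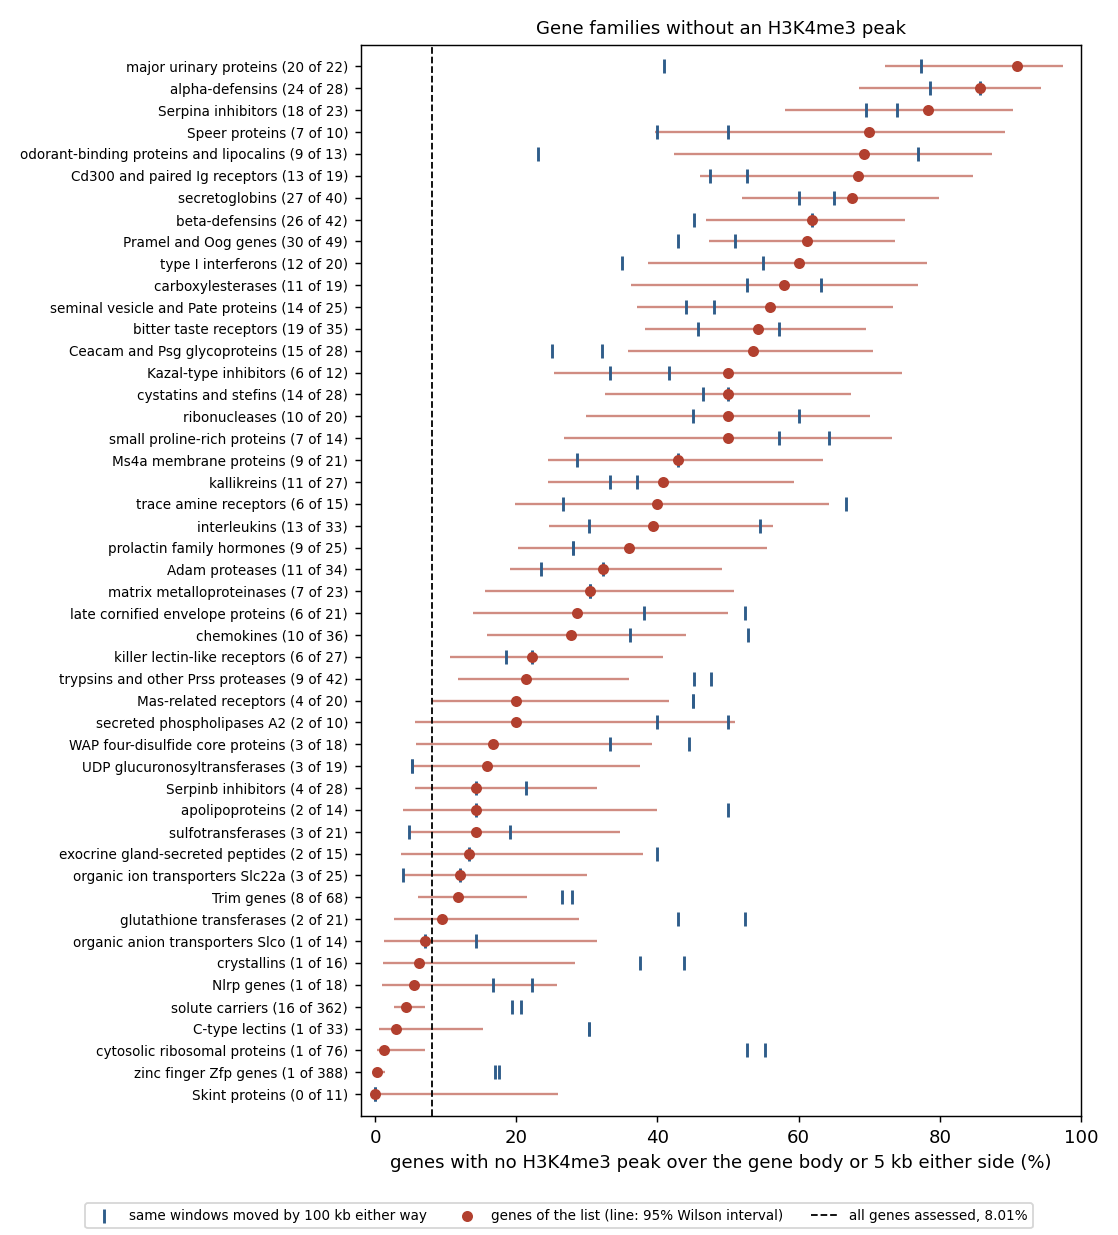
Percentage of genes with no H3K4me3 peak over the gene body or 5 kb either side (x axis) in each family list of 10 or more genes, with counts in the labels. Red points are the genes with 95% Wilson intervals, blue ticks the same windows moved by 100 kb either way and the dashed line all genes at 8.01%; major urinary proteins lead with 90.9%, and Zfp genes are at 0.258%.

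Lists of tissue and cell-type markers held 558 of the genes assessed, of which 93 (16.7%) had no peak. In 24 of 36 lists the share was above 8.01%, and these lists too were chosen with earlier results known. Against their own windows moved by 100 kb the lists looked different: the share in place was below both moved shares in 27 of 36 lists and above both in 2, liver plasma proteins and milk. For example, exocrine pancreas was at 25% in place and at 68.8% and 31.2% when moved, lung and airway at 33.3% against 58.3% and 41.7%, heart at 16.7% against 25% both ways, and spermatids and sperm at 14.7% against 32.4% both ways. The placenta list stood highest, with no peak at 9 of 15 genes, or 60% in place against 26.7% and 73.3% when moved. Among the 9 were Ctsj, Ctsq, Prl3d1 and Prl8a9, while Gcm1 and Hand1, transcription factors of the trophoblast, had peaks. Milk proteins had none at 4 of 8: Csn3 (κ-casein), Glycam1, Lalba and Wap, whereas Csn1s1, Csn1s2a, Csn1s2b and Csn2 had peaks. The salivary and lacrimal list had none at 6 of 13. Liver plasma proteins had none at 7 of 16: Alb, Apoh, Fgg (fibrinogen), G6pc (glucose release), Hp, Hpx and Ttr. The nearest peak lay 19578 bp from Alb, 8686 bp from Hp, 9678 bp from Hpx and 5331 bp from Ttr. The liver genes Ahsg, C3, C9 and Cps1 had peaks.

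Digestive, respiratory and endocrine lists followed. Stomach had no peak at 4 of 12 genes, with the mucin genes Muc5ac (82401 bp from a peak) and Muc6 among them. Intestine had none at 5 of 16, lung and airway at 4 of 12 and exocrine pancreas at 4 of 16. The endocrine pancreas list had none at 3 of 12: Ghrl (ghrelin), Iapp (amylin) and Ins2. The insulin genes differed: a peak with a fold of 9.48 overlapped Ins1, and the nearest peak to Ins2 was 8013 bp away. Neuropeptides had none at 4 of 20: Gnrh1, Pmch, Tac2 and Vip. In the pituitary and thyroid list Tg and Tshb (a thyrotropin subunit) had none, of 14 genes.

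In blood-cell lists, T cells had no peak at 4 of 16 genes: Cd2, Cd5, Ctla4 and Il2. Macrophages and granulocytes had none at 5 of 20: Csf1r, Ly6g, Mcpt4, Prg2 and S100a9. Csf1r, the receptor that macrophages depend on, lay 39778 bp from a peak. Natural killer cells had 1 of 11, Ncr1, and the erythroid and platelet list 1 of 14, Hbb-bh1, an embryonic globin. Muscle, retina, lens, bone and kidney lists each had a single gene with none: Tnnt3 of 16, Opn1sw of 16, Cryba1 of 15, Ctsk of 11 and Kap of 13. With the gene body alone as the window, 5 of these lists passed above the 12.4% of all genes: erythroid and platelets at 28.6%, lens at 26.7%, retina at 18.75%, kidney at 15.4% and skeletal muscle at 12.5%.

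Among cell types of the testis, Sertoli cells had no peak at 1 of 15 genes, Ptgds, and Leydig and interstitial cells at 2 of 11, Hsd3b1 and Star. Both of the latter serve steroid synthesis, and Star lay 21871 bp from a peak. All 12 endothelial genes had a peak, which allows a share without one of up to 25%. Marker genes of other cells of the testis thus had peaks in these windows too, and the makeup of the sorted cells was not tested.

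Lists of early germline genes had no member in the set. None of 22 germ cell identity genes (up to 13.6% allowed), 21 spermatogonial genes (up to 14.3%) or 26 meiotic genes (up to 11.5%) lacked a peak. All 18 pluripotency genes had one (up to 16.7%). Each of these limits lies above the 8.01% of all genes, so the counts of 0 do not set these lists apart. Their median CpG ratios ran from 0.547 to 0.666. Over all genes, 1.81% had no peak at a ratio between 0.4 and 0.6, and 0.0489% at 0.6 or more. The moved windows of the meiotic list, whose median gene was 31837.5 bp long, were empty in 0% and 3.85% of cases, so its count of 0 says little. For germ cell identity genes they were empty in 22.7% and 13.6%, for spermatogonial genes in 19.05% and 38.1%, and for pluripotency genes in 44.4% both ways. Dazl had 4 peaks in its window, Ddx4 had 5 and Sycp3 had 3. Some entered by the flanks alone: the nearest peak was 1181 bp from Nanos2 and 3735 bp from Nanos3, both RNA-binding regulators of male germ cells. With the gene body alone as the window, 9.09% of germ cell identity genes and 9.52% of spermatogonial genes had no peak, against 12.4% of all genes. With peaks of fold 5 or more only, the order turned: 31.8% and 23.8% had none, and 33.3% of pluripotency genes, against 19.1% of all genes.

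Genes used after meiosis were divided. Of 34 spermatid and sperm genes 5 had no peak: Acrv1 (an acrosomal protein, 11979 bp from a peak), Catsper4 (a sperm calcium channel subunit, 10349 bp), Cst8 (8615 bp), Prm1 (9621 bp) and Tssk2 (a spermatid kinase, 6355 bp). The neighbouring Prm2 had a peak at 4666 bp, the same one that is nearest to Prm1, so the threshold separates them. Tnp1, a transition protein of the same stage, was overlapped by a peak with a fold of 10.7. Of 21 oocyte genes 4 had none: H1f8 (the oocyte linker histone, 12740 bp from a peak), Oas1d (6998 bp), Padi6 (7569 bp) and Zp1 (17984 bp). Zp1 encodes a zona pellucida protein, and its partners Zp2 and Zp3 were both overlapped by peaks. Of 30 developmental transcription factors Hoxa9 had none, with a peak 5164 bp away. With peaks of fold 5 or more only, 60% of these factors had none, against 19.1% of all genes. All of these but Hoxa9 had peaks, of a fold under 5.

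**Figure D3:**
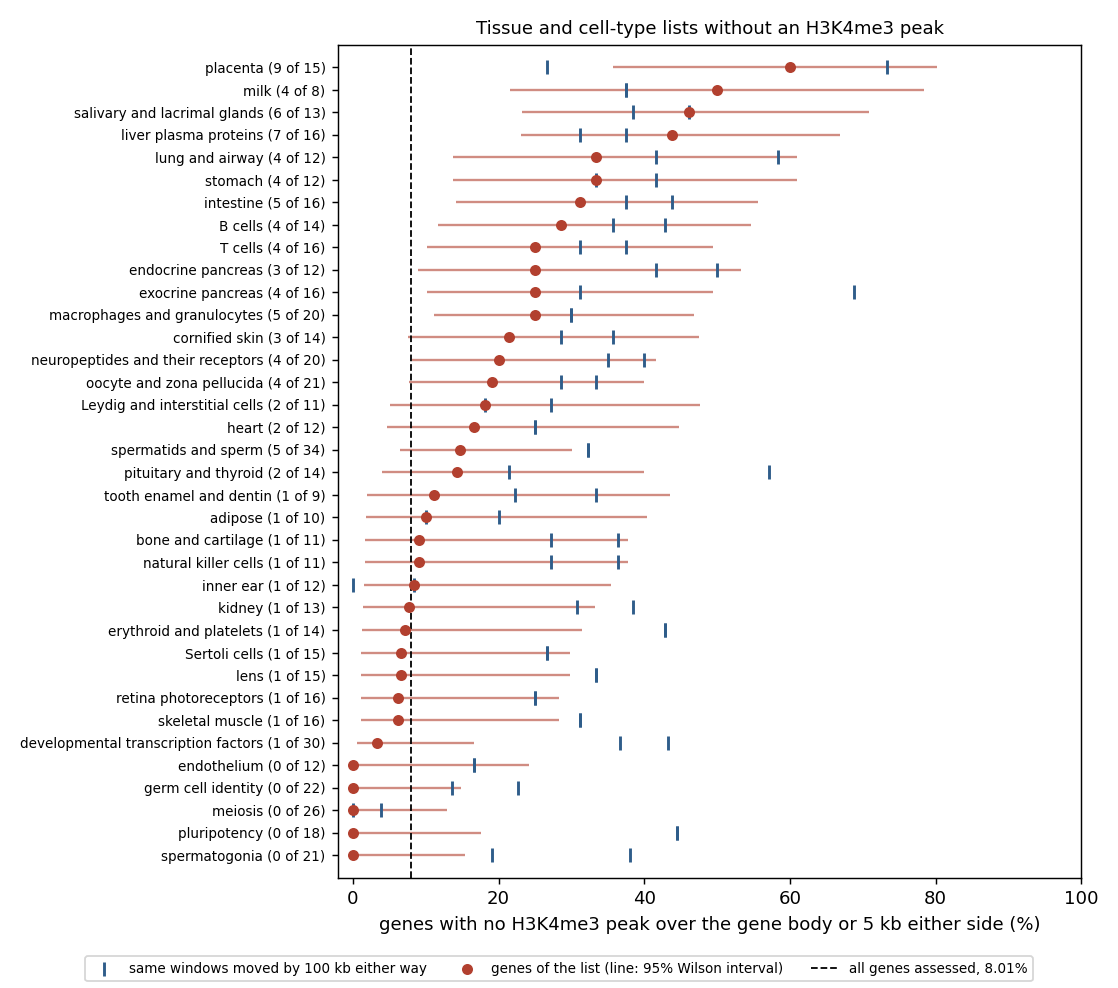
Percentage of genes with no H3K4me3 peak (x axis) in each tissue or cell-type list, with counts in the labels; red points are the genes with 95% Wilson intervals, blue ticks the same windows moved by 100 kb either way, and the dashed line all genes at 8.01%. Placenta leads with 60%, and endothelium, germ cell identity, meiosis, pluripotency and spermatogonia are at 0.

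The order of genes along the chromosomes was not used by the rule. The windows of close neighbours overlap, however, so such genes can lack a peak together, and runs partly follow from the 5 kb flanks. Of the 1513 genes, 687 (45.4%) had no neighbour of their kind, and 546 (36.1%) stood in 110 runs of 3 or more consecutive genes without a peak. Runs of 5 or more numbered 41 and held 316 genes. The longest, 19 genes from Gm19402 to Gm10318 on chromosome 10, spanned 163.8 kb with 0 peaks. A run of 18 on chromosome 16, from Gm7735 to Gm33084, spanned 119.1 kb with 2 peaks. Both were made of predicted genes. Of the 392 predicted genes with no peak, 64 lay next to a gene with a Krt symbol, 52 of them between a pair of such genes, so part of the predicted genes stood inside clusters whose named genes were left out by symbol. The 1667 genes left out by symbol had no peak in 45.5% of cases.

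Most of the next runs held named families. Chromosome 4 held 14 genes from Mup4 to Mup15 and 14 from Pramel26 to Pramel15. Chromosome 8 held 12 from Defa24 to Ccdc70, and chromosome 15 held 11 from Ly6a to Gm34646. Runs of 10 genes went from Gm11563 to Gm11567 on chromosome 11, all with predicted symbols, from Serpina5 to Serpina3m on chromosome 12, and from Scgb2b7 to Scgb2b13-ps and from Scgb1b15 to Scgb2b21 on chromosome 7. The runs differed in how empty they were between genes. The Mup run spanned 1483 kb and held 51 peaks, all over 5 kb from the genes of the run. The Serpina run spanned 294.9 kb with 4 peaks, and the 9 genes from Cd300lb to Cd300e spanned 143.9 kb with 0. By chromosome, the share without a peak ranged from 4.32% (chromosome 18) to 15.5% (chromosome 14, 125 of 808 genes).

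**Figure D4:**
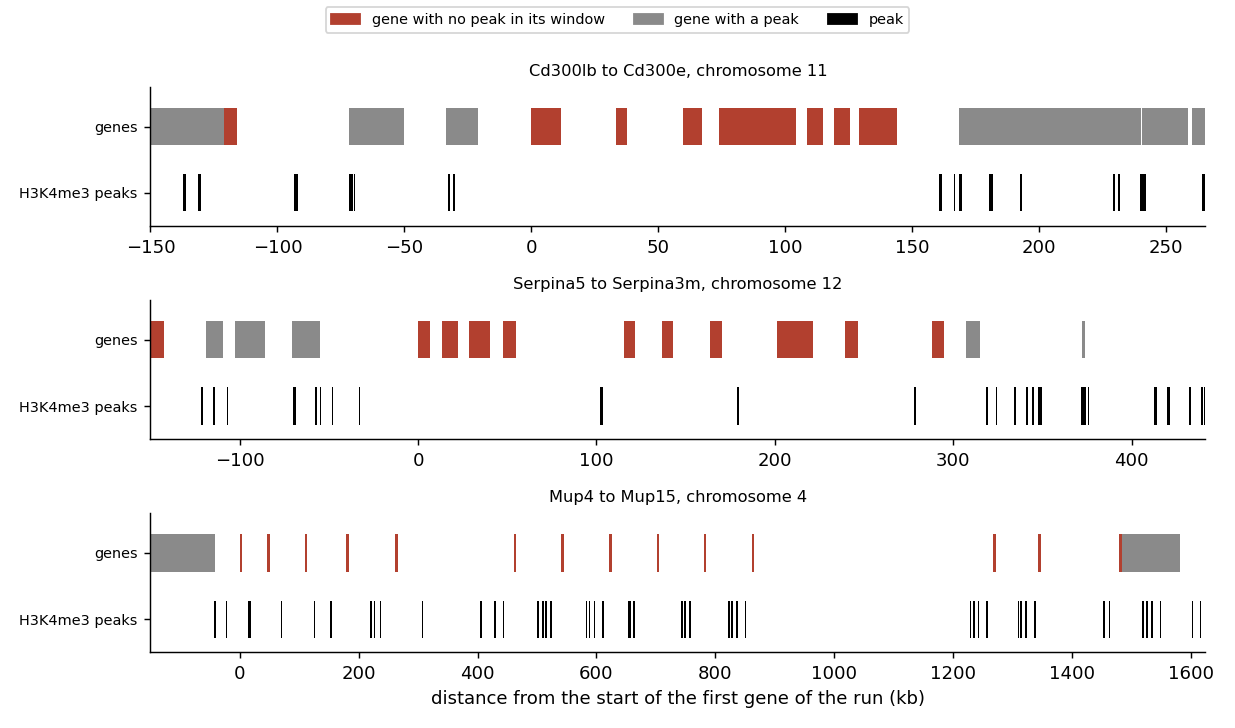
Genes (upper row of each panel, red with no peak in the window, grey with a peak) and H3K4me3 peaks (lower row, black) along 3 runs, against the distance in kb from the start of the first gene of the run; genes left out by symbol are not drawn, and the narrowest features are widened to stay visible. The Cd300 run holds 0 peaks, the Serpina run 4 and the Mup run 51 between its genes.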

How the data were processed

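Genes and family or tissue lists were chosen with earlier results of these data known. The submitters' processing notes name MACS2 2.1.0 and Bowtie2 2.5.0, and also deepTools 3.5.1, bedtools 2.27.1, SAMtools 1.16.1 and Trim Galore, with builds mm10 and sacCer3. Their settings were not stated in the sources used here, nor is the part of the IgG library in peak calling. The deposited peaks carry names beginning CRK4me3wIgG, which may mean that they were called with that library. The authors deposited 135064 peaks of 1 library, each with a fold enrichment (a ratio) at its summit. The deposited list also gives a −log10 p and a −log10 q per peak, a score, which was not analysed, and a summit position. These values are the authors' own and only describe or filter peaks within the list.

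Gene positions came from the RefSeq table of GRCm38.p6, the build also called mm10, with 20661 protein-coding genes on 19 autosomes. Of these, 107 on unplaced scaffolds or patches were left out, since their positions restart, and 1667 by symbol. Any overlap of a peak with the gene or 5000 bp either side counted. Promoters came from the RefSeq promoter table of GRCm38.p6, matched by gene, with the 5′-most start. It held 1223 of 1513 genes without a peak, 82.0% outside chromosome 18, for which it gave none. Of the genes with a peak, 81.7% outside chromosome 18 were matched. Lists were described by shares beside that over all genes, with 95% Wilson intervals, which cover counting error only. A share of 0 allows 3 counts. Windows moved by 100 kb gave a background. Named genes were, per list, the first 4 without a peak alphabetically and, under 25 genes, up to 4 with one. Added to these were all germline, oocyte and spermatid genes without a peak, the 5 nearest, farthest, longest and CpG-richest, the 5 just inside 5 kb, and the ends of the 10 longest runs. Any further gene was picked with its value in view. The text omits 1 gene so named, which is not reported here. Scripts (Python 3.11.15, numpy 2.4.6, pandas 2.3.3, statsmodels 0.14.6, scipy 1.17.1, matplotlib 3.10.9) were tested on simulated data. Alternatives covered the flank, peak thresholds, overlap, predicted genes and moved windows.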

Additional observations from a re-analysis of the deposited data

How the results depend on the processing

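No paired analysis was possible because the study has 1 library per antibody and no test was made. The number of genes without a peak was 1513. It was 2349 with the gene body alone as the window, 361 with 25 kb either side, 3600 with peaks of fold 5 or more only, and 4806 with windows moved by 100 kb. The median distance to the nearest peak, 13822 bp, became 8138 bp with no flank, 9453.5 bp with 1 kb, 19054 bp with 10 kb and 37979 bp with 25 kb, by construction of the rule. The median promoter CpG ratio, 0.131, became 0.143 with no flank and 0.341 with peaks of fold 5 or more, for which the cause was not tested. It stayed below that of the other genes under all alternatives run. Of 90 lists, 70 had a share above that over all genes, and 36 did with 25 kb either side, where 1.91% of genes remained. Genes in runs of 3 or more, 546, became 1001 with no flank, 878 with 1 kb, 349 with 10 kb, 113 with 25 kb and 1262 with peaks of fold 5 or more. A −log10 q of at least 5 moved 0 lists across the share over all genes, and a fold of at least 5 moved 14. Keeping genes on scaffolds, chosen after seeing the data, gave 1616 genes. Fragment depth is unknown, so shallow peaks missed by the caller cannot be told from absent ones.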

Other observations

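The lists above left out some families with high shares, found by sorting genes on the letters of their symbols and named after their values were seen. Of 270 such groups with 10 or more genes, 151 had no gene without a peak, and 18 had none at 50% or more of their genes. Apolipoprotein L genes (Apol) had no peak at 10 of 12, with a median length of 11424 bp over all 12. Arylacetamide deacetylase-like genes (Aadacl) had none at 6 of 10, and chemokine receptors of the Ccr series at 6 of 11, beside 10 of 24 for their Ccl ligands. F-box and WD-repeat genes (Fbxw) had none at 12 of 24, with a median length of 22244 bp over all 24. The length of the 12 alone was not taken. Runs of 7 and of 3 of these 12 genes lay on chromosome 9. Genes of the Ly series, largely Ly6 surface antigens of blood cells, had none at 11 of 25. Interferon-induced Ifi genes had none at 7 of 19, retinol dehydrogenases (Rdh) at 4 of 13 and aquaporins (Aqp) at 3 of 11.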
